A study of Mus musculus with 32 samples.

Results

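The immediate early genes Fos, Fosb, Jun, Junb, Jund, Egr1, Ier2 and Atf3 and the inducible heat shock genes Hspa1a and Hspa1b were followed through single-cell RNA libraries of embryonic mouse cortex. The 10 genes were taken by symbol from the 32285 genes of the deposited gene lists, and all 10 were found. Their level was read as CPM, the count of a gene in unique molecular identifiers (UMIs, each marking 1 captured RNA molecule) scaled to the total UMIs of the same cells. Levels were summed per library over all retained cells and over cells in which at least 1 UMI of Sox2 (neural progenitors), Neurod6 (excitatory neurons), C1qb (microglia) or Cldn5 (blood vessel endothelium) was detected.

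The tissue was dorsal telencephalon, the part of the embryonic forebrain that becomes cerebral cortex, of C57BL/6J mice, dissected without its medial part at embryonic day E12.5, E14.5, E16.0 or E17.5. At each stage there were 4 wild-type libraries and 4 Chd8+/- libraries, here called het, which made 8 groups of 4 libraries and 32 libraries in all. Chd8+/- embryos have lost 1 working copy of Chd8, a chromatin remodeller, in all cells, and no other allele or treatment is named for any group. Each library came from 1 embryo, and the labels match each het embryo to a wild-type littermate of its own sex. The 16 pairs are called M1 or M2 where the embryos were male and F1 or F2 where they were female.

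Immediate early genes are transcribed within minutes of a stimulus, without new protein synthesis, and their mRNAs are short-lived. In brain tissue they are known both as markers of neuronal activity and as genes that rise while cells are dissected and dissociated. Inducible HSP70 chaperones, encoded by Hspa1a and Hspa1b, are transcribed when heat shock factor is released by unfolded protein. Fos and Fosb proteins pair with Jun, Junb or Jund proteins to form the transcription factor AP-1, Atf3 is a stress-induced partner in the same family of leucine zipper factors, Egr1 is a zinc finger factor downstream of growth factor signalling, and Ier2 is a small nuclear protein of the same rapid response.

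The sequences just before the transcription start were read for these genes because such genes are switched on through short motifs close to their start. RefSeq promoter windows of GRCm38.p6 were present for 8 of the 10 members, all but Egr1 and Ier2. Those of Fos and Jun, the AP-1 partners, and of both heat shock genes are shown for 250 bases 5′ of the RefSeq start, with motif matches in capitals and the rest in lower case. The windows lie at chr12:85473640-85473889 on the plus strand for Fos, and on the minus strand at chr4:95052223-95052472 for Jun, chr17:34972157-34972406 for Hspa1a and chr17:34959239-34959488 for Hspa1b.
Fos: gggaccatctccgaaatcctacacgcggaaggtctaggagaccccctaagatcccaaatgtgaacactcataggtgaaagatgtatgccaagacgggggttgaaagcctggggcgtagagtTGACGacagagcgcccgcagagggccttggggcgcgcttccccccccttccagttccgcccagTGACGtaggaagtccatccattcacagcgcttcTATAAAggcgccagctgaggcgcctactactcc
Jun: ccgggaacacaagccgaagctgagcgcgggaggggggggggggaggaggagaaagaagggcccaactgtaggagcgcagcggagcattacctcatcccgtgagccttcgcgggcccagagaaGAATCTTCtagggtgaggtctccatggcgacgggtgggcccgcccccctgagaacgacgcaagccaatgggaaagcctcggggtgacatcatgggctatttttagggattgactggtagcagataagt
Hspa1a: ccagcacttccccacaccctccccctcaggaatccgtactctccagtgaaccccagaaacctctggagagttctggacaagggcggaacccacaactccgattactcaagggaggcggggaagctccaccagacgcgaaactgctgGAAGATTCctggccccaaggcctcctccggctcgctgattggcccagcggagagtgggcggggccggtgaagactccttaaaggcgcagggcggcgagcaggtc
Hspa1b: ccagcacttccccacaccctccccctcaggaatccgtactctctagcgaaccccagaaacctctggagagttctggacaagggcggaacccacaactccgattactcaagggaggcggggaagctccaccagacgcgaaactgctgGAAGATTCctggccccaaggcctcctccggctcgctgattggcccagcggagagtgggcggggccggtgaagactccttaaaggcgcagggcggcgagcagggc
In these windows the Fos sequence held the TATA motif TATAAA from -33 to -28 and the core TGACG of the cyclic AMP response element from -129 to -125 and from -66 to -62. Jun held a match to the paired heat shock element GAANNTTC from -128 to -121. Hspa1a and Hspa1b both held GAANNTTC from -104 to -97, and their windows were identical at 247 of 250 bases. The motifs were searched on both strands, and the share of 32851 promoter windows of the same length that held each was 1.47% for the CArG box, 6.69% for GAANNTTC, 7.17% for TTCNNGAA, 1.55% for TGACGTCA, 6.75% for TGANTCA, 12.4% for TATAAA and 17.8% for TGACG. The last of these lies within TGACGTCA and was added after the sequences were seen. A match describes letters in the reference and shows no binding.

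In the GENCODE M21 annotation of GRCm38, all 10 members are protein-coding. Fos lies at chr12:85473890-85477273 on the plus strand, Fosb at chr7:19302696-19310051, Jun at chr4:95049034-95052222, Junb at chr8:84974484-84978718 and Ier2 at chr8:84661331-84662852 on the minus strand. Jund lies at chr8:70698949-70700616 and Egr1 at chr18:34859823-34864984 on the plus strand, and Atf3 at chr1:191170296-191218039 on the minus strand. Hspa1a at chr17:34969190-34972156 and Hspa1b at chr17:34956436-34959238 lie near each other on the minus strand and are near-identical copies, so the split of their reads is uncertain and their sum is given where it matters. Exons of Junos overlap Jun, those of Prdx2 overlap Junb, those of Gm11175 overlap Jund and those of Gm20481 overlap Hspa1a, each on the opposite strand. Whether strand was used in counting is not given in the sources used here, so whether reads of such partners enter these counts is not known.

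After filtering and removal of 5471 putative doublets, 138226 of 145082 barcodes were retained, with 2399 to 6951 cells per library and a median of 3989 to 10607 UMIs per cell. The Chd8 level was lower in the het library in 15 of 16 pairs, with a median het to wild-type ratio of 0.84. The exception was pair F1 of E17.5, at 61.1 CPM in wild type and 70.7 CPM in het. Sox2 was detected in 54288 cells, Neurod6 in 85250, C1qb in 606 and Cldn5 in 1616, and 25 of 32 libraries had the 10 C1qb-detected cells required for a value. The sets overlap, since 29.6% of Sox2-detected cells also had a Neurod6 UMI, and only 36.8% of C1qb-detected and 25.6% of Cldn5-detected cells had a UMI of that gene alone. The summed level of 10 microglial markers had a median of 9953 CPM in C1qb-detected cells against 9.79 CPM in Sox2-detected cells, and 8 endothelial markers reached 3339 CPM in Cldn5-detected cells against 11.1 CPM. However, 8 radial glia markers were at 2391 CPM in C1qb-detected and 3100 CPM in Cldn5-detected cells, so these 2 sets also hold cells of other types that carry a few UMIs of the defining gene, or RNA from outside the cell. Between any 2 libraries, 6 to 62 cell barcodes were shared, at most 1.17% of the smaller library.

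Pairs of the same stage differed in most members. In all retained cells at E17.5, the 4 wild-type libraries M1, M2, F1 and F2 held Fos at 213.0, 76.6, 128.4 and 74.3 CPM, and the het libraries in the same order at 156.1, 55.3, 188.3 and 65.6 CPM. Both genotypes of pairs M1 and F1 were thus above both genotypes of pairs M2 and F2. Jun stood at 578, 167, 312 and 172 CPM in wild type and at 478, 166, 513 and 175 CPM in het, with the same split. Egr1 stood at 92.5, 20.5, 63.9 and 23.3 CPM in wild type and at 62.9, 12.2, 59.7 and 18.9 CPM in het. Hspa1a, the inducible chaperone, was at 41.2, 0.98, 30.3 and 0.85 CPM in wild type and at 22.7, 2.51, 20.6 and 7.62 CPM in het. The 4 libraries of M1 and F1 did not overlap the other 4 in any of these genes. How many of all genes also did not overlap was not counted, here or for the other stages and cell sets below. The sum of Hspa1a and Hspa1b, which does not depend on the split between the copies, ran from 22.4 to 45.2 CPM in M1 and F1 and from 1.05 to 7.95 CPM in M2 and F2.

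**Figure D1:**
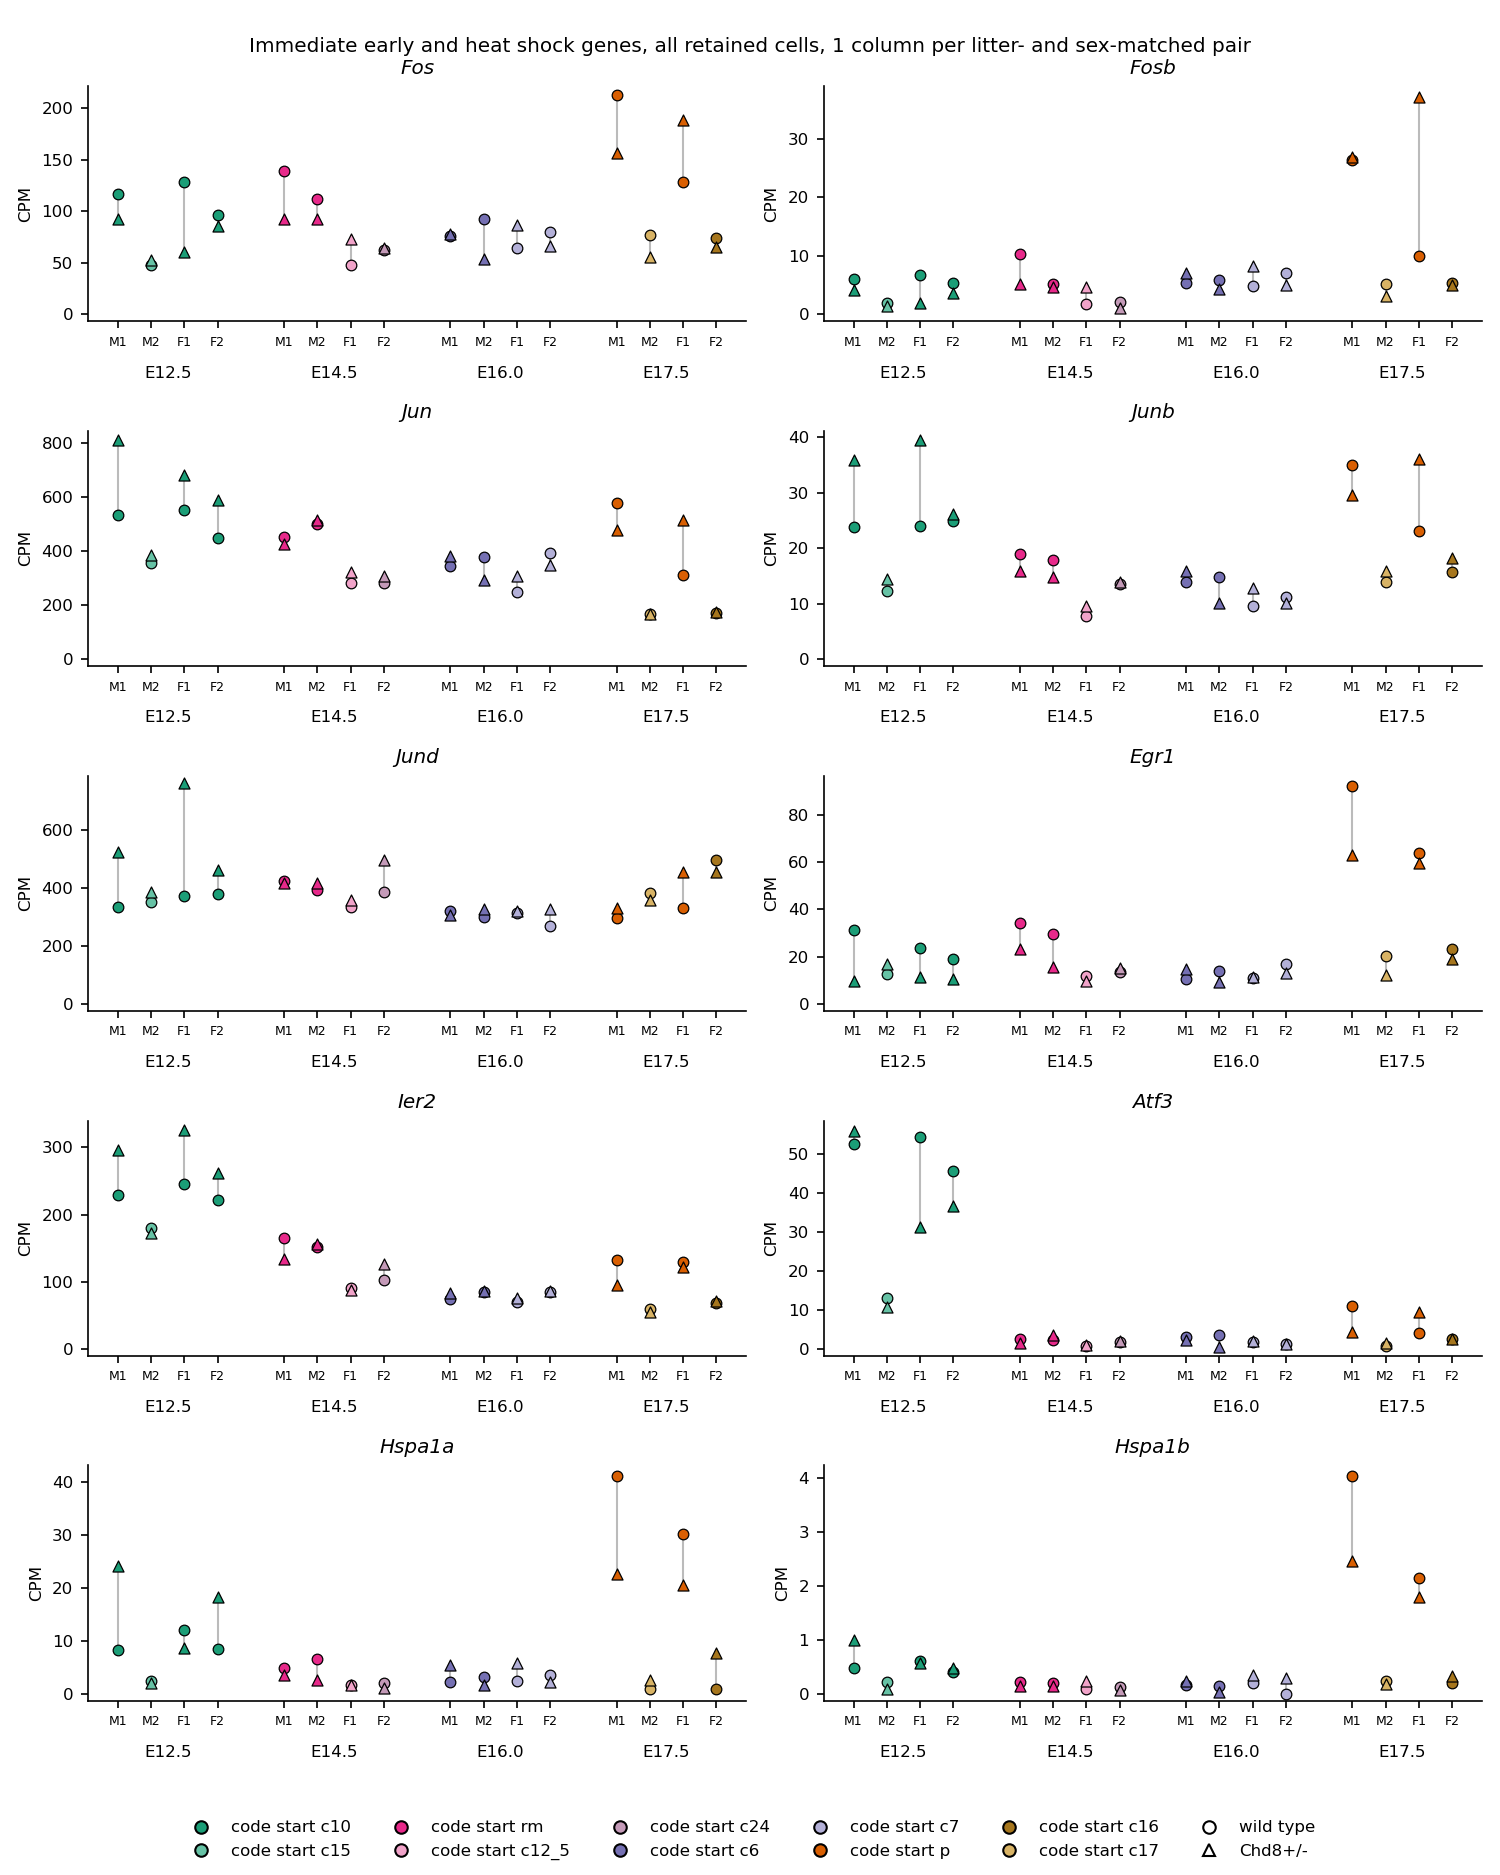
CPM of the 10 genes in all retained cells (vertical axis, linear, a scale of its own for each gene) in the 16 pairs (horizontal axis, by stage). Circles are wild-type and triangles het libraries of a pair, joined by a line, and colours mark the start of the labels' sample code. At E17.5 the pairs M1 and F1 lie above M2 and F2 for Fos and Hspa1a but not for Jund, while Atf3 is high at E12.5 except in pair M2.

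A test of all differences between pairs of a stage (12 coefficients in 1 edgeR quasi-likelihood fit with genotype and stage, p-values adjusted by Benjamini-Hochberg over 15884 genes) passed for 9 of 10 members, all but Jund (adjusted p = 0.089). Across all genes tested 45.6% passed, so the pairs differed in much of the transcriptome. In Sox2-detected cells 9 members passed (33.1% of genes, Jund not), and in Neurod6-detected cells 9 passed (47.2% of genes, Atf3 not). The spread between pair means was widest at E17.5 for 9 members, all but Junb, for which it was 1.09 there and 1.18 at E12.5. How many of all genes were also widest at E17.5 was not counted, so this is not read as a trait of the members. For Hspa1a, the highest and lowest pair means there differed by 3.88 on the log2 scale, against 2.42 at E12.5, 1.18 at E14.5 and 0.63 at E16.0. For Egr1 they differed by 2.23 at E17.5 against 0.30, 1.35 and 0.38 at the earlier stages. For Jund this difference was at most 0.60 at any stage. Since the 4 libraries of pairs M1 and F1 at E17.5 stand apart, the test was repeated without them, and 6 members passed in all cells (26.8% of genes). These were Jun, Junb, Ier2, Atf3, Fosb and Hspa1a, while Fos (adjusted p = 0.053), Egr1 (0.172), Jund and Hspa1b did not pass. Without those libraries, 6 members passed in Sox2-detected cells (20.9% of genes; Fos, Fosb, Jun, Ier2, Atf3 and Hspa1a) and 4 in Neurod6-detected cells (27.8% of genes; Jun, Junb, Ier2 and Hspa1a).

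The labels give each library a sample code, and its start (the part before a dash, or the letters of a code without one) is shared by both libraries of every pair. What the code stands for is not stated. At E17.5 the start is p for pairs M1 and F1 and c16 or c17 for F2 and M2, so the 2 classes of 4 libraries are balanced for genotype and sex. The contrast between them was chosen after the values were seen and describes the pattern above by its size. With code start p, 9 of 10 members were higher in all cells, among 46.1% of 15884 genes that differed in either direction and 25.2% that were higher. Fos was higher by 1.28 ± 0.18 (SE) on the log2 scale, Jun by 1.40 ± 0.15, Egr1 by 1.86 ± 0.22, Fosb by 2.31 ± 0.34 and Atf3 by 2.09 ± 0.40, with adjusted p between 2.81e-07 and 0.000191. These p-values take the 8 libraries as independent, although each class is made of 2 littermate pairs whose libraries deviate together. With both libraries of a pair summed, in a test added after the values were seen, the same 9 were higher (20.2% of genes) and Jund was lower at -0.37 ± 0.12 (adjusted p = 0.028, 21.9% of genes lower). Junb and Ier2 differed least among those called, by 0.90 and 0.85. Hspa1a was higher by 3.42 ± 0.48 and Hspa1b by 3.39 ± 0.48. Jund, a Jun gene known for steady expression, had the other sign, at -0.32 ± 0.14 (adjusted p = 0.072).

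Other measures also moved with this division at E17.5. Median UMIs per cell were 4619 to 5090 with code start p and 3989 to 5448 in the other 4 libraries, and the median mitochondrial share was 1.22% to 1.56% against 1.09% to 1.37%, so both ranges overlapped. Summed radial glia markers were at 2233 to 2789 CPM against 3170 to 3360 CPM, and 8 excitatory neuron markers at 2346 to 2707 against 1953 to 2179 CPM. Interneuron markers, 6 in all, were at 71.3 to 85.1 CPM against 119 to 291 CPM, and microglial markers at 37.5 to 111 against 72.6 to 217 CPM. Their part in the member differences in all cells was not tested. Fewer cells of a type and less RNA per cell cannot be told apart in the sums over all cells.

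In Sox2-detected cells at E17.5, Fos was at 257, 180, 175 and 228 CPM in wild-type M1, wild-type F1, het M1 and het F1, against 107, 58.3, 61.0 and 61.4 CPM in wild-type M2, wild-type F2, het M2 and het F2. Egr1 in the same order was at 204, 200, 152 and 137 CPM against 42.6, 45.8, 23.3 and 44.2 CPM. Neither gene overlapped between the 2 classes. In these progenitor-rich cells 8 members were higher with code start p (20.9% of 13830 genes), by 1.55 ± 0.26 for Fos and 2.14 ± 0.27 for Egr1, while Atf3 and Jund did not pass. Hspa1b is among the 8, but it rests on 25, 4, 10 and 9 UMIs against 0, 0, 0 and 1 UMI, so no fold is given. Radial glia markers overlapped between the classes in Sox2-detected cells (7554 to 9219 against 7917 to 8804 CPM), whereas excitatory neuron markers were at 836 to 1047 against 640 to 738 CPM, and the part of the latter was not tested.

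In Neurod6-detected cells 8 members, all but Atf3 and Jund, were higher (26.2% of 14605 genes), and Jund differed by -0.38 ± 0.14 (adjusted p = 0.029), as 23.2% of genes were lower. Fos there was at 189, 103, 144 and 153 CPM against 53.5, 71.2, 42.5 and 60.2 CPM, without overlap, and was higher by 1.34 ± 0.18. Jun was higher by 1.60 ± 0.14 and Egr1 by 1.95 ± 0.25. In Cldn5-detected cells 6 members were higher (4.95% of 7893 genes): Hspa1a by 3.37 ± 0.46, Fosb by 3.24 ± 0.49, Atf3 by 2.95 ± 0.36, Fos by 1.76 ± 0.36, Jun by 1.58 ± 0.17 and Hspa1b. The last rests on 25, 24, 11 and 13 UMIs against 3, 1, 2 and 2 UMIs, so no fold is given. Hspa1a in these cells was at 430, 288, 240 and 241 CPM against 15.3, 19.3, 19.2 and 60.7 CPM, again without overlap. Other markers moved with the classes in this set too: radial glia markers were at 1058 to 2142 CPM with code start p and at 3520 to 5190 CPM in the others, and endothelial markers at 4029 to 7208 against 3003 to 4413 CPM. Their part in the Cldn5-detected differences was not tested.

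**Figure D2:**
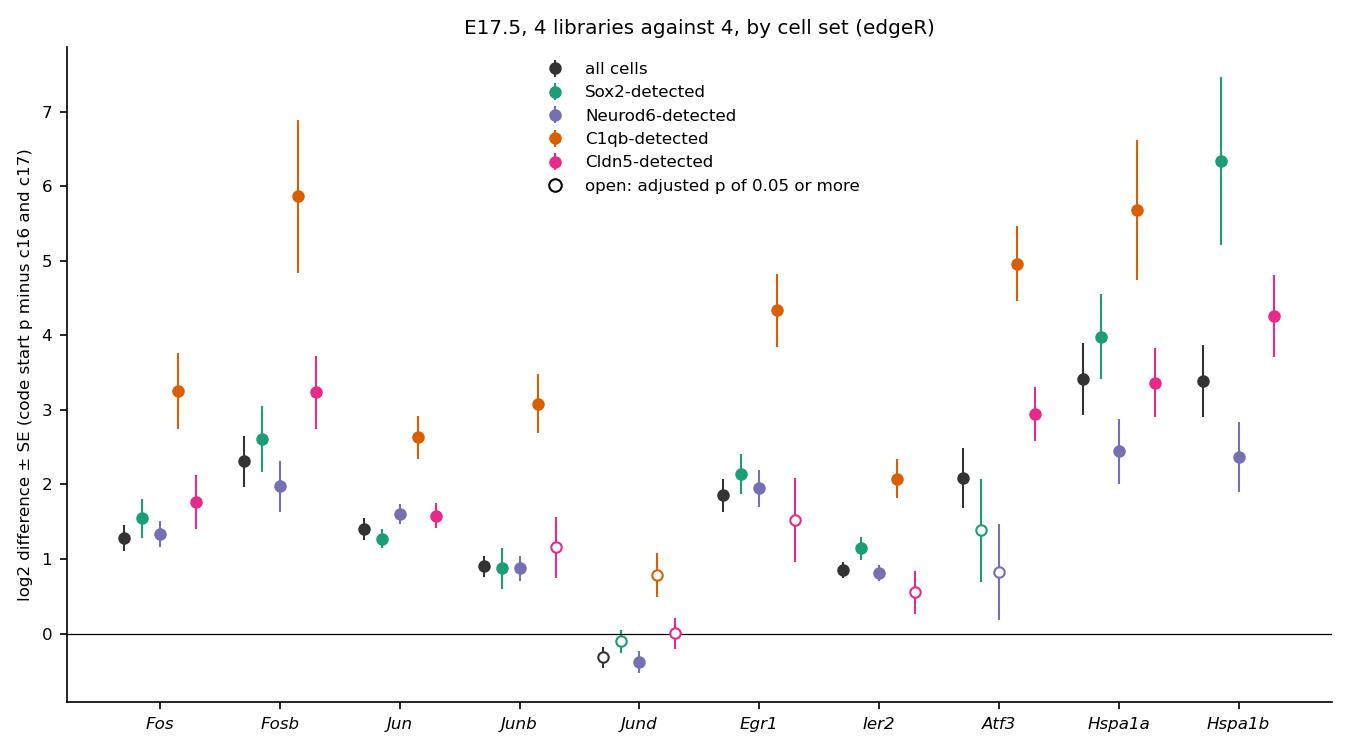
Log2 difference at E17.5 between the 4 libraries with code start p and the 4 with c16 or c17 (vertical axis, edgeR fit, bars are 1 SE) for each gene (horizontal axis), in all cells and in each cell set. Filled points passed an adjusted p of 0.05, and the C1qb-detected points lie highest for Fos, Fosb, Jun, Junb, Egr1, Ier2, Atf3 and Hspa1a; Hspa1b was not tested in those cells.

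The largest values of several members were met in C1qb-detected cells. Fos stood there at 1489, 1284, 387 and 2050 CPM in wild-type M1, wild-type F1, het M1 and het F1 and at 129, 194, 143 and 93.5 CPM in the other 4 E17.5 libraries, from 11 to 26 and from 25 to 69 cells per library. Atf3, a stress-response factor, was at 950, 985, 710 and 1661 CPM against 30.8, 68.1, 21.04 and 22.3 CPM. Neither gene overlapped between the classes. Of 9 members tested, 8 were higher with code start p (2.17% of 5633 genes), all but Jund. Fos was higher by 3.25 ± 0.51, Jun by 2.63 ± 0.29, Junb by 3.08 ± 0.40, Egr1 by 4.34 ± 0.49, Atf3 by 4.96 ± 0.50, Ier2 by 2.08 ± 0.26, Fosb by 5.86 ± 1.02 and Hspa1a by 5.68 ± 0.94. The last 2 rest on few UMIs, since het M1 held 1 Fosb and 5 Hspa1a UMIs and the libraries with c16 or c17 held 0 to 3 and 0 to 4. In these cells the summed microglial markers were at 7341 to 13142 CPM with code start p and at 4034 to 10342 CPM in the others, and radial glia markers at 630 to 3590 against 837 to 3850 CPM, both overlapping. Erythroid markers were at 264 to 823 against 332 to 45706 CPM, and 4 pericyte markers were all at 0 with code start p and at 12.3 to 445 CPM in the others. With code start p, 12 of 26, 5 of 12, 5 of 11 and 10 of 15 cells had a UMI of C1qb alone. In the others, 7 of 25, 19 of 69, 13 of 32 and 6 of 29 did, a smaller share in each. The libraries are in the order used above for Fos. The part of this makeup and of these other cells in the differences was not tested.

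Whether this difference was larger in C1qb-detected than in Sox2-detected cells was tested with the library as a block. The 1 fit held the Sox2-, Neurod6-, C1qb- and Cldn5-detected sets, so each SE draws on the spread in all of them. The test passed for 6 members: Atf3 (3.41 ± 0.84, adjusted p = 0.039), Egr1 (1.87 ± 0.40, 0.015), Junb (1.86 ± 0.35, 0.0088), Fos (1.496 ± 0.343, 0.024), Jun (1.09 ± 0.24, 0.020) and Jund (0.76 ± 0.19, 0.040), among 1.09% of 13044 genes. Only Jund passed when the sets were made of cells with a UMI of 1 defining gene alone (0.138% of genes), or of cells with at least 3 such UMIs (0.894% of genes), where wild-type M1 was the only library with code start p that had 10 C1qb-detected cells. With no filter on low counts 0 members passed (0.00888% of genes). Atf3, Junb and Egr1 passed without wild-type M1 (0.698%), and Junb and Egr1 without wild-type F1 (0.406%) or without het F1 (0.13%). The test takes the libraries of a pair as independent and was not repeated on pair sums. No member passed the same test for Neurod6-detected (6.23% of genes) or Cldn5-detected cells (0.843% of genes) against Sox2-detected cells. An unadjusted p under 0.05 was met by 3 members for Neurod6-detected cells, as by 2483 of 13044 genes. For Cldn5-detected cells 2 members met it, which is not read as a result, since no share of genes is given beside it.

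**Figure D3:**
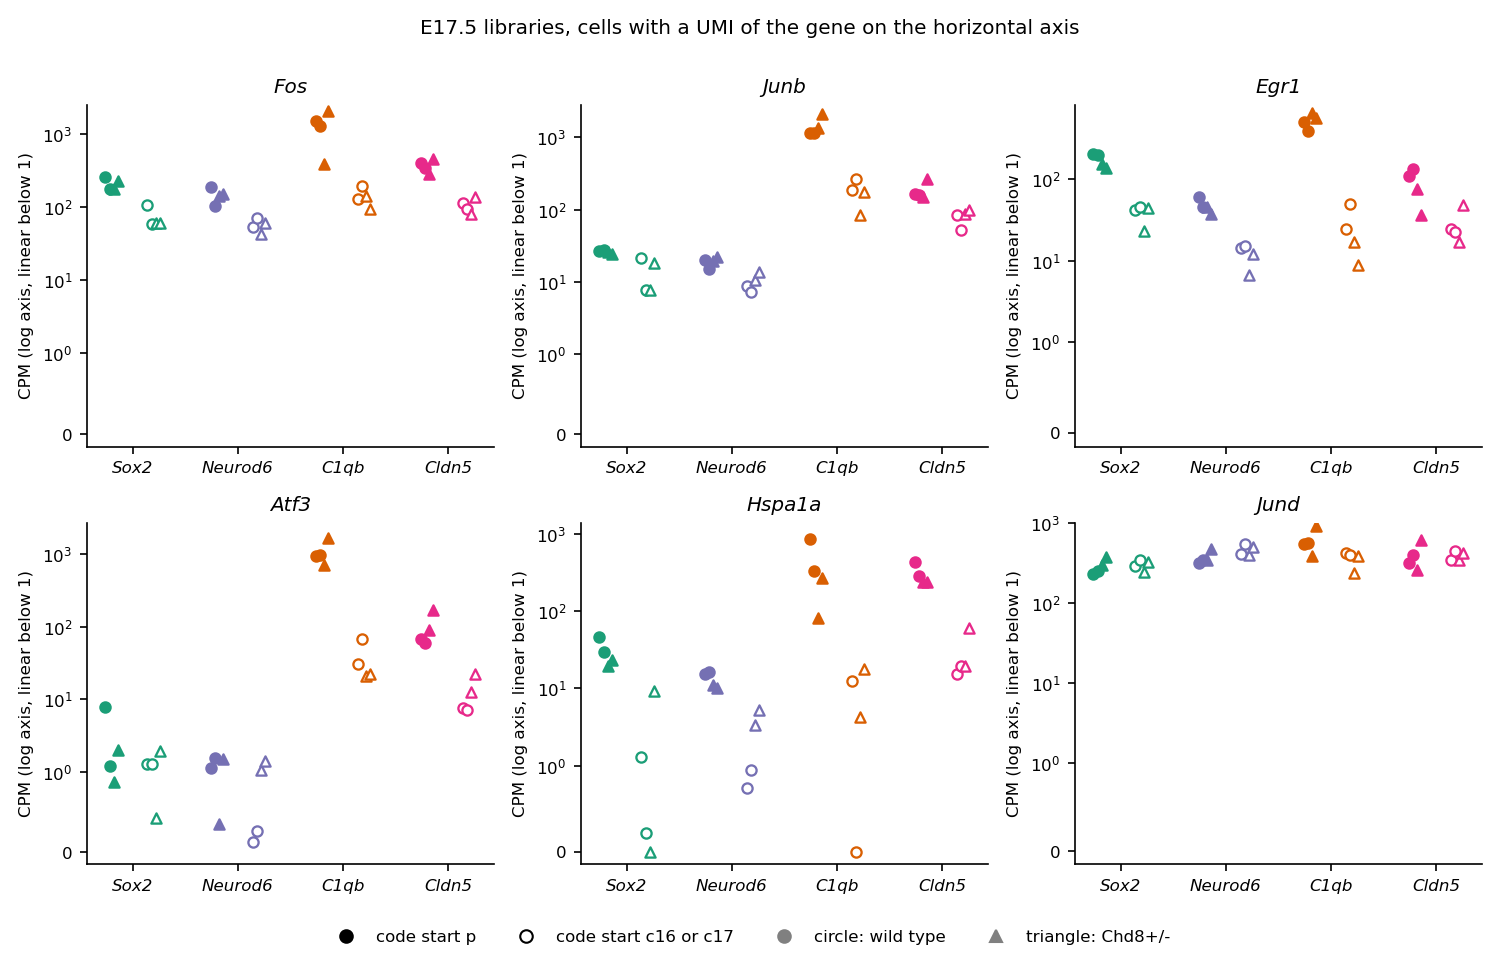
CPM of 6 members (vertical axis, log scale, linear below 1) in each E17.5 library, in cells with a UMI of Sox2, Neurod6, C1qb or Cldn5 (horizontal axis). Filled symbols have code start p and open symbols c16 or c17, circles are wild type and triangles het. Fos, Junb and Atf3 in C1qb-detected cells with code start p all lie above the other libraries, from 387 to 2103 CPM, whereas Jund overlaps in every set.

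Shares of cells with a UMI at E17.5 are given for Fos, Hspa1a and Jund. After thinning each cell to 2000 UMIs, Fos was detected in 17.9% to 25.9% of cells per library with code start p and in 7.61% to 9.62% with c16 or c17 (unthinned, 31.6% to 40.4% against 13.6% to 17.2%). Hspa1a was detected in 2.00% to 2.96% of thinned cells against 0 to 0.51% (unthinned, 3.57% to 5.29% against 0.13% to 0.86%). Jund overlapped, at 43.5% to 55.0% of thinned cells against 48.2% to 60.2% (unthinned, 68.0% to 78.7% against 73.5% to 80.5%). Thinning left out 2.29% of wild-type and 4.04% of het cells. Fos was found more often in cells with Hspa1a: with code start p, 49.1% of 324 thinned cells with an Hspa1a UMI also had a Fos UMI, against 21.6% of 13693 cells without one. Fosb was found in 11.6% of cells with Fos and in 2.60% of cells without, in the same libraries. These are descriptions over cells of 4 libraries, and RNA from outside the cell was not modelled.

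At E12.5, pair M2 (code start c15) stood below the 3 pairs with c10. Atf3 was at 52.5, 13.2, 54.3 and 45.7 CPM in wild-type M1, M2, F1 and F2, and at 55.9, 10.7, 31.4 and 36.8 CPM in het. Both libraries of M2 were below the other 6 without overlap. Higher with c10 were 8 members, all but Jund and Egr1 (1.82% of 15884 genes), Atf3 by 1.98 ± 0.36, Hspa1a by 2.52 ± 0.55, Junb by 1.13 ± 0.17, Fos by 0.94 ± 0.21 and Ier2 by 0.59 ± 0.13. One class is a single pair here. Without het M2, which leaves wild-type M2 as the only library with c15, assumed to vary like the other groups, 0 members passed (0.0378% of genes). With pair sums 6 of the 8 passed, all but Jun and Hspa1b (0.611% of genes higher). In Sox2-detected cells Fos, Jun, Junb, Ier2, Atf3 and Hspa1a were higher (3.45% of genes), in Neurod6-detected cells the same but for Atf3 (6.26%), in Cldn5-detected cells Atf3 and Hspa1a (0.266%) and in C1qb-detected cells 0 (0% of 5633 genes). In the last set Atf3, Jun, Ier2 and Hspa1a had an unadjusted p under 0.05, as did 303 of the 5633 genes. Median UMIs per cell were 10024 to 10607 in M2 and 4157 to 10512 in the other 6 libraries, and the part of this depth in the difference was not tested.

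At E14.5, code start rm marks both male pairs and c12_5 and c24 the female pairs, so sex and code cannot be told apart. With rm, 6 members were higher (13.4% of 15884 genes): Fos by 0.74 ± 0.18, Fosb by 1.41 ± 0.35, Jun by 0.59 ± 0.14, Junb by 0.55 ± 0.15, Egr1 by 0.92 ± 0.22 and Ier2 by 0.51 ± 0.11. Fos ran from 92.5 to 139.0 CPM with rm and from 48.0 to 72.8 CPM in the other 4, without overlap. In Sox2-detected and Neurod6-detected cells 7 members each were higher (10.2% and 14.2% of genes). Both sets had Fos, Fosb, Jun, Egr1, Ier2 and Hspa1a (1.89 ± 0.57 and 1.71 ± 0.48), with Atf3 in the former and Junb in the latter. Without wild-type F1, Jun, Egr1 and Ier2 passed in all cells (13.7% of genes in either direction), and with pair sums the 6 and Hspa1a did (8.74% of genes higher). Median UMIs per cell were 8336 to 8672 with rm and 5976 to 7613 otherwise, and the part of depth was not tested.

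At E16.0 sex and code start again coincide (c6 male, c7 female), and no member passed in all cells (0.9% of genes passed), Sox2-detected cells (1.44%) or Neurod6-detected cells (1.22%). An unadjusted p under 0.05 was met by 0, 0 and 1 member, and by 1431 of 15884, 1604 of 13830 and 1211 of 14605 genes. The 1 member was Hspa1a in Neurod6-detected cells (-1.31 ± 0.48), which passed there with pair sums (-1.30 ± 0.21, adjusted p = 0.0073, 1.08% of genes lower). It rests on few UMIs, with 17 and 29 in wild type and 24 and 35 in het with c6. With c7, wild-type F1 and F2 held 32 and 56 UMIs, and het F1 and F2 held 107 and 26. In wild-type F2, 1 cell held 37 of the 56, and in het F1 1 cell held 22 of the 107. Fos ran from 53.9 to 92.1 CPM with c6 and from 64.1 to 86.4 CPM with c7, so the ranges overlapped.

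Over the 25 libraries with a value in C1qb-detected cells and all 32 in Sox2-detected cells, the 10 members were higher in the former, among 24% of 13025 genes that were higher. Atf3 was higher by 5.35 ± 0.36, Junb by 4.92 ± 0.26, Hspa1a by 4.47 ± 0.29, Hspa1b by 4.43 ± 0.39, Fosb by 2.54 ± 0.30, Fos by 2.31 ± 0.17 and Egr1 by 1.72 ± 0.27, whereas Ier2, Jun and Jund differed by 0.84, 0.71 and 0.26. Atf3 in C1qb-detected cells ran from 13.1 over a median of 173 to 1661 CPM, and in Sox2-detected cells from 0.40 over 1.97 to 63.0 CPM, so the ranges over libraries overlapped. In Cldn5-detected cells 8 members were higher than in Sox2-detected cells (33% of genes): Hspa1b by 4.54 ± 0.25, Hspa1a by 3.76 ± 0.23, Junb by 3.62 ± 0.22, Fosb by 2.62 ± 0.20, Atf3 by 2.42 ± 0.34, Fos by 1.27 ± 0.15, Ier2 by 0.71 ± 0.10 and Jund by 0.30 ± 0.06. Jun (0.03 ± 0.08) and Egr1 (0.44 ± 0.22, adjusted p = 0.071) did not pass.

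In Neurod6-detected cells Junb (1.06 ± 0.18), Jund (0.59 ± 0.06), Fos (0.46 ± 0.13) and Fosb (0.36 ± 0.15) were higher than in Sox2-detected cells (47.6% of genes were), and Atf3 (-1.28 ± 0.27) and Jun (-0.66 ± 0.08) were lower (33.9% of genes). Ier2, Egr1, Hspa1a and Hspa1b did not pass. Jun thus ran from 234 to 883 CPM in Sox2-detected and from 123 to 556 CPM in Neurod6-detected cells, with wide overlap between libraries.

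Between genotypes, no member passed at any stage. At E12.5 0 members and 0.334% of 15884 genes passed (0.246% higher and 0.0881% lower). An unadjusted p under 0.05 was met there by 1 member and by 2436 genes. At E14.5, E16.0 and E17.5 0% of genes passed, and that p was met by no member and by 263, 286 and 642 genes. By comparison, DESeq2 called 1, 0, 0 and 0 members, at E12.5 among 5.4% of 12187 genes. The closest was Jund at E12.5, at 333, 351, 370 and 379 CPM in wild-type M1, M2, F1 and F2 and at 523, 386, 761 and 460 CPM in het. The het libraries lay above all wild-type libraries, by 0.66 ± 0.17 (edgeR adjusted p = 0.064), and DESeq2 gave 0.70 ± 0.18 (adjusted p = 0.0085). With the pair as a block, Jund (0.61 ± 0.13, adjusted p = 0.015), Junb (0.49 ± 0.14, 0.037), Jun (0.44 ± 0.12, 0.028) and Ier2 (0.33 ± 0.10, 0.047) passed as higher in het, but that fit called 12.6% of all genes in either direction. Beside these values stands a depth gap: the het library of the pair had 0.71, 1.06, 0.40 and 0.60 times the median UMIs per cell of its wild-type partner in M1, M2, F1 and F2, and its part was not tested.

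Averaged over stages, 0 members passed (0.371% of genes did, 0.277% as higher and 0.0944% as lower), and by DESeq2 the count was also 0. An unadjusted p under 0.05 was met by 2 members and by 1109 of 15884 genes. Jund was higher in het in 12 of 16 pairs (0.23 ± 0.08, adjusted p = 0.43). Egr1 was lower in het in 12 of 16 pairs (-0.45 ± 0.22, adjusted p = 0.71), and with the code start as a term, added after the values were seen, it passed at -0.43 ± 0.11 (adjusted p = 0.046), as did 1.64% of genes. At E12.5 Egr1 stood at 31.2, 12.5, 23.9 and 19.0 CPM in wild type and 9.77, 16.98, 11.4 and 10.6 CPM in het, lower in 3 of 4 pairs. With the same term it passed at that stage at -0.71 ± 0.22 (adjusted p = 0.039), in a fit that called 12.5% of genes. The het libraries of M1, M2, F1 and F2 there had 0.71, 1.06, 0.40 and 0.60 times the median UMIs per cell of their partners. The part of this depth in the Egr1 difference was not tested. Het was higher for Fos in 6, Fosb in 5, Jun in 11, Junb in 11, Ier2 in 10, Atf3 in 8, Hspa1a in 7 and Hspa1b in 7 of 16 pairs. The averaged genotype contrast called 0 members in Sox2-detected (0.513% of genes), Neurod6-detected (0.219%, of which 0.0274% lower), C1qb-detected (0%) and Cldn5-detected cells (0%). An unadjusted p under 0.05 was met by 1, 2, 0 and 0 members, and by 1241 of 13830, 836 of 14605, 413 of 6444 and 269 of 7902 genes. With DESeq2 0 members were called in each set. With the code start as a term Jund passed in Sox2-detected cells at 0.28 ± 0.08 (adjusted p = 0.044), as did 2.48% of genes. The genotype by stage interaction called 0 members and 0% of genes, and the DESeq2 count was 0. Jund alone of the members had an unadjusted p under 0.05, as did 745 of 15884 genes.

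**Figure D4:**
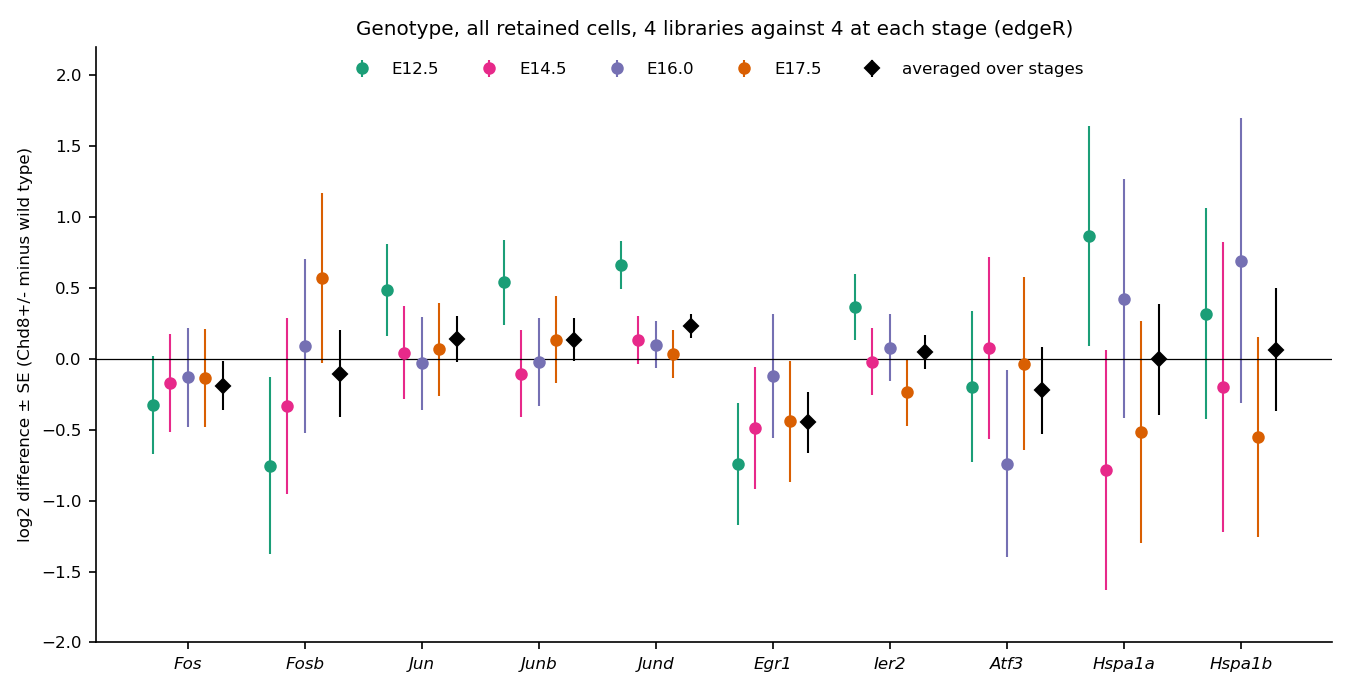
Log2 difference between 4 het and 4 wild-type libraries in all retained cells (vertical axis, edgeR fit, bars are 1 SE) for each gene (horizontal axis), at each stage and averaged over stages. No point passed an adjusted p of 0.05, and the farthest from 0 in units of its SE is Jund at E12.5, at 0.66 ± 0.17.

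Every code start occurs at a single stage, so differences between stages cannot be told apart from code start or litter at any step below. Between stages, the clearest change in wild type in all retained cells was the fall of Atf3 from E12.5 to E14.5. It fell from 41.4 ± 19.2 CPM (SD, n = 4) at E12.5 to 1.87 ± 0.77 CPM at E14.5, without overlap, a log2 difference of -4.54 ± 0.65 (edgeR adjusted p = 1.06e-06). Ier2 also fell at this step, by 0.90 ± 0.24, among 53.8% of genes that differed and 28.3% that were lower. In Sox2-detected cells Atf3, Ier2 and Junb were lower (18.6% of genes were lower and 20.1% higher), and in Neurod6-detected cells the same 3 were (38.3% of genes differed, 17.7% as lower). Stage steps were not tested in C1qb-detected and Cldn5-detected cells. Atf3 in C1qb-detected wild-type cells was at 58.7 to 264 CPM at E12.5, and at 44.9 and 213 CPM in F1 and F2 of E14.5. In Cldn5-detected wild-type cells it ran from 56.3 to 177 CPM at E12.5 and from 5.85 to 29.5 CPM at E14.5. Wild-type M1 of E17.5 was at 11.1 CPM in all cells. From E14.5 to E16.0, Ier2 (-0.87 ± 0.24) and Jund (-0.53 ± 0.17) were lower (5.89% of genes, against 5.32% higher). No member was called at that step without wild-type M1 (4.72% of genes) or without wild-type M2 of E14.5 (4.83%). In Sox2-detected cells both were lower too (9.44% of genes differed, 4.39% as lower and 5.05% as higher), and none without wild-type M1 of E14.5 (5.35% of genes). In Neurod6-detected cells Ier2 alone was lower (6.36% of genes, against 5.33% higher), and it did not pass without wild-type M1 or M2 of E14.5 or any 1 wild-type library of E16.0 (4.33% to 7.01% of genes).

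From E16.0 to E17.5, Junb (0.89 ± 0.31), Egr1 (1.99 ± 0.44), Hspa1a (2.76 ± 0.85) and Hspa1b (3.67 ± 0.87) were higher in all cells (7.74% of genes, against 9.98% lower). The count was 2 without wild-type M1, M2 or F1 of E16.0 (12.8%, 12.5% and 17.7% of genes) or wild-type F1 of E17.5 (12.2%). Hspa1b rests on 87, 5, 44 and 3 UMIs in wild-type M1, M2, F1 and F2 of E17.5. Without the libraries with code start p, Hspa1a was at -1.51 ± 0.92 (adjusted p = 0.31), Hspa1b at 0.78 ± 0.97 (0.66), Egr1 at 0.84 ± 0.35 (0.12) and Junb at 0.35 ± 0.34 (0.55), whereas Jun passed as lower (-0.91 ± 0.26, 0.022) and Jund as higher (0.64 ± 0.18, 0.024), among 11.6% of genes. In Sox2-detected cells 7 members, all but Fosb, Jun and Atf3, were higher (22.9% of genes differed, 12.9% as higher), and without the libraries with code start p 4 passed (20.5% of genes), Junb at 2.12 ± 0.53, Egr1 at 1.81 ± 0.43 and Jund at 0.68 ± 0.20 as higher and Jun at -0.86 ± 0.24 as lower. In Neurod6-detected cells Hspa1b and Egr1 were higher (5.64% of genes differed, 2.87% as higher and 2.77% as lower), and without those libraries 1 member passed, Jun at -0.85 ± 0.25 (5.25% of genes).

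Other genes of the same responses were read from lists of 40 immediate early, 22 heat shock and 15 endoplasmic reticulum stress genes. At E17.5 in all cells, 18 of 39 other immediate early genes were higher with code start p and 0 lower (median difference 0.46, against 0.01 over all genes), among them the nuclear receptor Nr4a2 (1.48 ± 0.21), the zinc finger factor Klf6 (1.37 ± 0.12) and Myc (0.61 ± 0.18). Of all genes 46.1% were called in this comparison, 25.2% as higher and 20.9% as lower. Of 22 other heat shock genes 9 were higher and 1 lower (median 0.09), with the chaperones Hspa4 at 0.64, Hsp90aa1 at 0.56 and Hsph1 at 0.55. Of 15 endoplasmic reticulum stress genes 6 were higher and 0 lower (median 0.23), led by the chaperone Hspa5 at 1.13, with Pdia4 at 1.05 and Hsp90b1 at 0.92. In C1qb-detected cells, where 2.17% of genes were higher, 15 of 24 other immediate early genes were higher (median 1.88), with Klf4 at 6.81 ± 1.13, Klf2 at 3.30 ± 0.53 and Klf6 at 2.48 ± 0.29, but 1 of 18 heat shock genes, Dnajb1, at 1.97. Of 13 endoplasmic reticulum stress genes in those cells 4 were higher and 0 lower (median 0.82), with Hspa5 at 2.23, Herpud1 at 1.94 and Hsp90b1 at 0.88. In Sox2-, Neurod6- and Cldn5-detected cells 9 of 36, 13 of 38 and 6 of 26 other immediate early genes were higher. In the same order 0, 2 and 0 were lower (medians 0.39, 0.37 and 0.48). Of the 22, 22 and 20 heat shock genes tested there, 10, 8 and 7 were higher and 2, 3 and 0 lower (medians 0.25, -0.007 and 0.46). Of 15, 15 and 13 endoplasmic reticulum stress genes, 6, 6 and 5 were higher and 0 lower (medians 0.33, 0.22 and 0.66). In these sets 4831 of 13830, 7209 of 14605 and 700 of 7893 genes were called in either direction, and the shares that were higher are given above. At E12.5, 9 of 39 other immediate early, 1 of 22 heat shock and 2 of 15 endoplasmic reticulum stress genes were higher with c10 (1.82% of genes). At E14.5, 14, 6 and 9 were higher with rm (13.4% of genes) and 3, 0 and 1 lower (11.4%). At E16.0, and between genotypes averaged over stages, the 3 lists held 0 called genes in all cells.

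The genes whose level followed a member most closely across the 32 libraries, once the mean of each group was subtracted, included some shared by several members. For Fos they were Clk1 (Pearson r = 0.94), Klf6 (0.92) and Zranb1 (0.90), for Jun Coq10b (0.95), Clk1 (0.95) and Ccnl1 (0.93), and for Egr1 Zfp612, Klf6 and Rpn1 (0.91 each). For Junb and Atf3 the closest was Ppp1r15a (0.89 and 0.83), for Ier2 5430416N02Rik (0.90) and for Jund Med28 (0.79). Among members, Fos and Fosb had r = 0.95, Fos and Jun 0.90, and Fos and Jund -0.13. Without the 4 libraries with code start p, over 28 libraries, these were 0.90, 0.79 and 0.12, and Fos with Clk1 had 0.88. Jund had 0.16 with Ier2, 0.24 with Junb and 0.12 with Atf3 over 32 libraries, and 0.64, 0.61 and 0.47 over the 28. With Fos, Fosb, Jun, Egr1 and Hspa1a it ran from 0.02 to 0.31 over the 28. The points share litter, code start and depth, so r is given without p, and Fosb, Hspa1a and Hspa1b were below the mean of 10 CPM required for a list of their own.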

How the data were processed

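The authors deposited, per sample, gene by barcode matrices of UMI counts from 10x 3′ libraries, without normalization. The submitters' processing notes name mm10, Cell Ranger, STARsolo and STAR 2.7.9a, with no role for each. Barcodes were kept (143697) from 1000 UMIs and 500 genes upward, with a mitochondrial share of no more than 10%. Doublets were simulated per library over 2000 variable genes and 30 principal components, and 0.8% of cells per 1000 cells were removed (1.96% to 5.91% of a library). RNA from outside the cell was not modelled. Total counts ran from 14710694 to 66499864 UMIs per library.

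UMIs were summed per library and cell set (at least 10 cells), and tested with edgeR 4.0.16 (quasi-likelihood, TMM, R 4.3.3) over all genes passing its filter on low counts, with Benjamini-Hochberg adjusted p under 0.05 as a call. Genotype and stage contrasts used 1 fit over 8 groups. Pair and code start contrasts had genotype and stage in the fit. Cell sets were compared with the library as a block. DESeq2 1.42.0 was an alternative. Fits leaving out 1 library reused the genes and dispersion trend of the full fit and estimated the quasi-likelihood dispersion anew. Scripts were tested on simulated data. Other tools were Python 3.11.15, numpy 2.4.6, pandas 2.3.3 and scikit-learn 1.9.0. Values by code start (also with both libraries of a pair summed), and cell sets against Sox2-detected cells, were compared after the values were seen.

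Pairs come from the labels, which match litter and sex. Deviations from the group mean correlated within all 16 pairs (r from 0.15 to 0.86 over genes). In 12 of them the het partner was closer to the wild-type library than any other het library of its stage. Members and lists were chosen with earlier results of these data known. All 10 members were tested in each comparison where they passed the count filter, with values given for those described, and the text names up to 3 called genes of each other list by size of change (mean CPM at least 5). Gene positions are from GENCODE M21, promoters from RefSeq. Embryos are the replicates, from few litters, so p-values measure the spread between these embryos.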

Additional observations from a re-analysis of the deposited data

Results flagged for a closer look

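In 80 groups of 4 libraries, 1 per gene, stage and genotype in all cells, 2 held a library far from the others by Dixon's criterion, and chance gives about 1 in 20. Fosb was at 1.07 CPM in het F2 of E14.5, while the other 3 het libraries were at 4.69 to 5.23 CPM. Junb was at 12.3 CPM in wild-type M2 of E12.5, while the other 3 wild-type libraries were at 23.9 to 25.0 CPM. Het M2 of E12.5, its littermate, was also the lowest of its group for Junb, as the plot by library shows.

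The E17.5 difference between code start p and the other libraries was larger in C1qb-detected than in Sox2-detected cells for 6 members by the test of that difference in edgeR. The excess was 3.41 on the log2 scale for Atf3, 1.87 for Egr1, 1.86 for Junb, 1.496 for Fos, 1.09 for Jun and 0.76 for Jund. Jund, at 2.07 and 1.52, was the only one of them to pass with exclusive sets and with at least 3 UMIs of the defining gene, and none passed with no filter on low counts. Those stricter sets rest on few libraries in C1qb-detected cells: 2 with code start p against 2 with exclusive sets, and 1 (wild-type M1) against 3 with at least 3 UMIs, where the lone library has no replicate.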

How the results depend on the processing

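Counts below are members called. For het against wild type at E12.5 in all cells (0), DESeq2 size factors (0.806% of genes called), DESeq2 (5.4%) and leaving out the 4 libraries with code start p (2.94%) gave 1 each, the pair as a replicate block 4 (12.6% of genes) and a code start term 5 (12.5%). Averaged over stages (0), the code start term gave 1 in all cells (1.64%) and 1 in Sox2-detected cells (2.48%). Without the libraries with code start p, E14.5 against E12.5 had 4 (from 2; 58.2% of genes), and E17.5 against E16.0 had 2 in all cells (from 4; 11.6%), 4 in Sox2-detected (from 7; 20.5%) and 1 in Neurod6-detected cells (from 2; 5.25%). The called value of Hspa1a changed sign without them (-1.51 in all, -0.18 in Sox2-detected cells), and Jun in Neurod6-detected cells, not called with all libraries, was called with the opposite sign (-0.85). E16.0 against E14.5 had 1 in all cells with no filter on low counts (from 2; 4.18% of genes). It had 4 in Sox2-detected cells with the code start term (from 2; 22.4% of genes), and in Neurod6-detected cells 5 with that term (35.9%) and 2 without code start p (20.5%; from 1). The code start term gave 7 for E17.5 against E16.0 in all cells (33.1%), and in Neurod6-detected cells exclusive sets gave 0 (4.91%) and at least 3 UMIs 1 (5.45%). Pairs in Neurod6-detected cells had 4 without code start p (from 9; 27.8%).

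At E16.0 (0), no filter on low counts gave 2 in Sox2-detected (2.17%) and 1 in Neurod6-detected cells (1.85%) by code start, and pair sums 1 in the latter (1.09%). At E12.5, no filter gave 8 in Neurod6-detected (11.5%, from 5; exclusive sets 3, 4.06%), 3 in C1qb-detected (0.201%, from 0) and 6 in Cldn5-detected cells (1.27%, from 2; doublets kept 5, 1.6%; pair sums 4, 1.18%). The code start p difference between sets had 0 with no filter (0.00888%) and 1 each with exclusive sets (0.138%) and at least 3 UMIs (0.894%) for C1qb (from 6), 1 (0.207%) and 2 (0.148%) with those sets for Cldn5 (from 0) and 1 (3.97%) with at least 3 UMIs for Neurod6 (from 0). Exclusive and stricter sets had too few libraries for the averaged genotype and E12.5 code start contrasts in C1qb-detected and Cldn5-detected cells.

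Leaving out 1 library moved these counts, with the range of all genes called in the same fits, to 0 to 1 for E12.5 genotype (1 without het M2; 0.0063% to 9.49%), 0 to 1 for averaged genotype in Sox2-detected cells (1 without het M2 of E12.5; 0.318% to 1.06%), 0 to 2 for E16.0 against E14.5 in all (4.72% to 17.7%), Sox2-detected (5.35% to 13.2%) and Neurod6-detected cells (4.33% to 18%), 2 to 4 for E17.5 against E16.0 in all (12.1% to 19%) and 1 to 3 in Neurod6-detected cells (2.96% to 7%), 0 to 8 for code start at E12.5 (0.0378% to 13.9%), 3 to 7 at E14.5 (13.7% to 29.2%), and 2 to 7 for C1qb (0.13% to 1.38%) and 0 to 1 for Neurod6 (3.13% to 7.13%) in the difference between sets. The replicate block changed no other genotype call that it could be fitted for. For single genes, 147 of the values without 1 library lost and 41 gained a call and 8986 did neither. Under the other alternatives 53 lost, 100 gained, 2296 did neither, 3 changed sign and 10, shares of cells thinned against unthinned, moved.

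Few UMIs limit Hspa1b (0 to 4.03 CPM in all cells) and every value in C1qb-detected cells, of which a library held 1 to 69. Code start coincides with sex at E14.5 and E16.0 and with 1 pair at E12.5. Every code start occurs at a single stage, so stage, code start and litter cannot be told apart.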
